A study of Homo sapiens with 12 samples.

Results

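RNase H2 is the nuclease that cuts RNA out of double-stranded DNA, and its subunits are encoded by RNASEH2A, RNASEH2B and RNASEH2C. In a pooled dual-sgRNA CRISPR interference (CRISPRi) screen of K562 cells, every construct that carried an sgRNA against 1 of these genes in either position was taken, without regard to its counts. These were 3 of the 543 genes, 6 of the 1141 sgRNAs and 13656 of the 1301881 constructs of the library. Each gene was covered by 4560 constructs, of which 220 paired it with a non-targeting sgRNA, 4336 with an sgRNA of another gene and 4 with an sgRNA of the same gene. Within the enzyme, 36 constructs joined 2 of the 6 sgRNAs.

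RNASEH2A holds the catalytic site, while RNASEH2B and RNASEH2C form the platform that keeps the trimer stable, and RNASEH2B also carries a PCNA-binding motif. The enzyme starts ribonucleotide excision repair, in which a ribonucleotide built into DNA by a replicative polymerase is cut out and the gap refilled, and it also digests longer RNA-DNA hybrids such as R-loops. Where the enzyme is missing, topoisomerase 1 can cleave at the ribonucleotides, which leaves nicks and protein-linked breaks that engage PARP1, and cells without RNase H2 are known for their sensitivity to PARP inhibitors. Inherited mutations in the subunit genes cause Aicardi-Goutières syndrome.

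K562 is a leukaemia line, here expressing the CRISPRi machinery, in which an sgRNA near a gene's start represses its transcription. The abundance of each construct was read from genomic DNA in 12 libraries, from 2 screens (2022 and 2023) of 2 replicate cultures each. Each culture was sampled on day 9 after transduction (T0) and then divided into a DMSO arm, called the reference, and a niraparib arm. Niraparib inhibits PARP1 and PARP2. In 2022 the drug was given at 2 µM for 3 days, the library was introduced at a 350-fold representation and cells were harvested on day 18. In 2023 the dose was raised from 2 µM to 3 µM, the drug was present for 4 days, the representation was over 400-fold and the harvest was on day 19. All groups carried the same library under puromycin selection at the start, and the treated cells regrew without drug before harvest. Knockdown was not measured in these files, so a weak phenotype and a weak knockdown cannot be told apart. Libraries held 182552286 to 460723933 counts, with a median of 134 to 368 counts per construct of the RNase H2 genes, and these constructs made up 1.15 to 1.24% of each library.

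Because CRISPRi acts where transcription starts, the sequence around the starts of the 3 genes is given here, from RefSeq (GRCh38.p14), 5′ to 3′ on the strand of the gene. Each window holds 250 bases before the start in lower case and 50 bases from the start onwards in capitals. RNASEH2B has 2 annotated starts whose windows overlap. The windows lie at chr19:12806334-12806633 (plus strand) for RNASEH2A, at chr13:50909428-50909727 and chr13:50909541-50909840 (plus strand) for RNASEH2B, and at chr11:65720749-65721048 (minus strand) for RNASEH2C.
RNASEH2A: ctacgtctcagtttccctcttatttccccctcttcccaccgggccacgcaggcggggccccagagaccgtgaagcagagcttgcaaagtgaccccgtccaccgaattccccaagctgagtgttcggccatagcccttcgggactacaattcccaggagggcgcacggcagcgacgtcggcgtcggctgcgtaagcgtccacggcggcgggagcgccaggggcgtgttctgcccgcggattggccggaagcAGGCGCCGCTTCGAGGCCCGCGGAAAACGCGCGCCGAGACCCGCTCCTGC
RNASEH2B, start 1: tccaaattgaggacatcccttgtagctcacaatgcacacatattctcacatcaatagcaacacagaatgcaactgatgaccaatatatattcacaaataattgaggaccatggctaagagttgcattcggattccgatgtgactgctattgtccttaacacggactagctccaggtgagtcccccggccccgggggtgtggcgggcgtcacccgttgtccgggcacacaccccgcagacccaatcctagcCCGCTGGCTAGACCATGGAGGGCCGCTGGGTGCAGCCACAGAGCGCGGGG
RNASEH2B, start 2: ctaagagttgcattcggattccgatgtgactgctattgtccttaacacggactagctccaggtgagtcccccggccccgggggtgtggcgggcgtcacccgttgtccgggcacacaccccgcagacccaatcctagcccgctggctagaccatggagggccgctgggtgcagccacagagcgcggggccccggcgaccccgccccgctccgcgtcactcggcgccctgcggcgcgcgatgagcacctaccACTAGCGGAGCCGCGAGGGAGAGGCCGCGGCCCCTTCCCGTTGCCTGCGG
RNASEH2C: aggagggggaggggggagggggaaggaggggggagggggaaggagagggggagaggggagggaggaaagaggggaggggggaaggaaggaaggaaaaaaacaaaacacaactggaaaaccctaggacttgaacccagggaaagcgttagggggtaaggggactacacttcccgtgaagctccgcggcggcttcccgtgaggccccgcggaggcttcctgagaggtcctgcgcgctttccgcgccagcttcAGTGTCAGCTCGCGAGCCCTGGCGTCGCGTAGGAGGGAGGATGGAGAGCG
The RNASEH2A window had a GC content of 67.7% and 36 CpG dinucleotides, and that of RNASEH2C 64.3% and 18. The RNASEH2B windows had 55% and 14 at start 1, and 70.3% and 33 at start 2. The median over 35116 RefSeq promoter windows of the same length was 58.7% and 14. In the files an sgRNA is named by gene, strand and a position whose genome build is not given in the sources used here, so the sgRNAs were not placed on these windows. By those names the 2 sgRNAs of RNASEH2A lay 91 bases apart, those of RNASEH2C 107 bases apart, and those of RNASEH2B only 4 bases apart. In the same annotation RNASEH2C overlaps KAT5 and RNASEH2B overlaps RNASEH2B-AS1. Neither neighbour was targeted in the library, and whether an sgRNA also lowered one of them was not tested.

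Loss of each subunit alone slowed growth, and loss of RNASEH2C did so most. Growth is given as the log2 change of a gene's constructs with non-targeting partners from T0 to the reference arm, relative to constructs with 2 non-targeting sgRNAs. In 2022 replicates 1 and 2 and 2023 replicates 1 and 2, in this order, growth was -0.200, -0.193, -0.228 and -0.222 for RNASEH2A. For RNASEH2B it was -0.281, -0.297, -0.255 and -0.275, and for RNASEH2C it was -0.801, -0.881, -0.921 and -0.921. The groups of replicates did not overlap between the genes, and all 12 values lay below the range of the 55 non-targeting sgRNAs, which ran from -0.064 to 0.076. The means were -0.21 ± 0.02 for RNASEH2A, -0.28 ± 0.02 for RNASEH2B and -0.88 ± 0.06 for RNASEH2C (SD, n = 4), with edgeR quasi-likelihood adjusted p-values of 5.95e-07, 2.91e-07 and 6.48e-09. Lower growth was called for 81.0% of all genes and higher growth for 4.24%, so the call alone does little to set these genes apart in a library in which most knockdowns slow growth. The median of all genes was -0.46, and from the lowest value upwards the 3 genes ranked 174 (RNASEH2C), 332 (RNASEH2B) and 362 (RNASEH2A) of 543. RNASEH2C thus fell more than most genes, next to NAMPT and MTBP, and the other 2 fell less than the median gene. With libraries scaled on all genes (TMM) in place of the non-targeting pairs, the median of all genes moved to -0.01, RNASEH2A and RNASEH2B turned to 0.24 and 0.18, and RNASEH2C stayed below 0 at -0.43.

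Niraparib lowered the abundance of RNASEH2B and RNASEH2C knockdown cells beyond their slower growth in DMSO, and that of RNASEH2A cells little if at all. The response, which is the log2 change from the reference to the niraparib arm, was -0.361, -0.323, -0.305 and -0.266 for RNASEH2C in the replicates in the same order. For RNASEH2B it was -0.117, -0.118, -0.114 and -0.140. For RNASEH2A it was -0.068, -0.042, -0.002 and -0.018, inside the range of the non-targeting sgRNAs (-0.085 to 0.049). The RNASEH2C and RNASEH2B values all lay below that range. The mean response was -0.31 ± 0.04 for RNASEH2C (edgeR adjusted p = 4.53e-06), -0.12 ± 0.01 for RNASEH2B (4.32e-05) and -0.03 ± 0.03 for RNASEH2A (0.0142), with n = 4 replicates each. A lower response was called for 35.7% of genes and a higher one for 44.2%, with a median of 0.01 over all genes. From the lowest response upwards RNASEH2C ranked 84, RNASEH2B 145 and RNASEH2A 195 of 543. Just below RNASEH2C in that order were LZTR1 and the Fanconi anaemia core gene FANCC, both at -0.32. Just above it were the checkpoint clamp gene RAD9A and RHOXF2, both at -0.31. The median response was -0.85 over 16 Fanconi anaemia genes and -0.14 over 15 ATR checkpoint genes. The RNASEH2A call was lost without 2023 replicate 1 (adjusted p = 0.0977) or without 2023 replicate 2 (0.172). It also rested on 2022, where the response was -0.06 (0.0073), against -0.01 in 2023 (0.512). The difference between the screens was 0.05 with an adjusted p of 0.279, and no member differed between screens in growth or response. Over all genes the screens differed in growth for 30.0% (lower in 2023) and 1.1% (higher), and in response for 0.368% (lower).

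**Figure D1:**
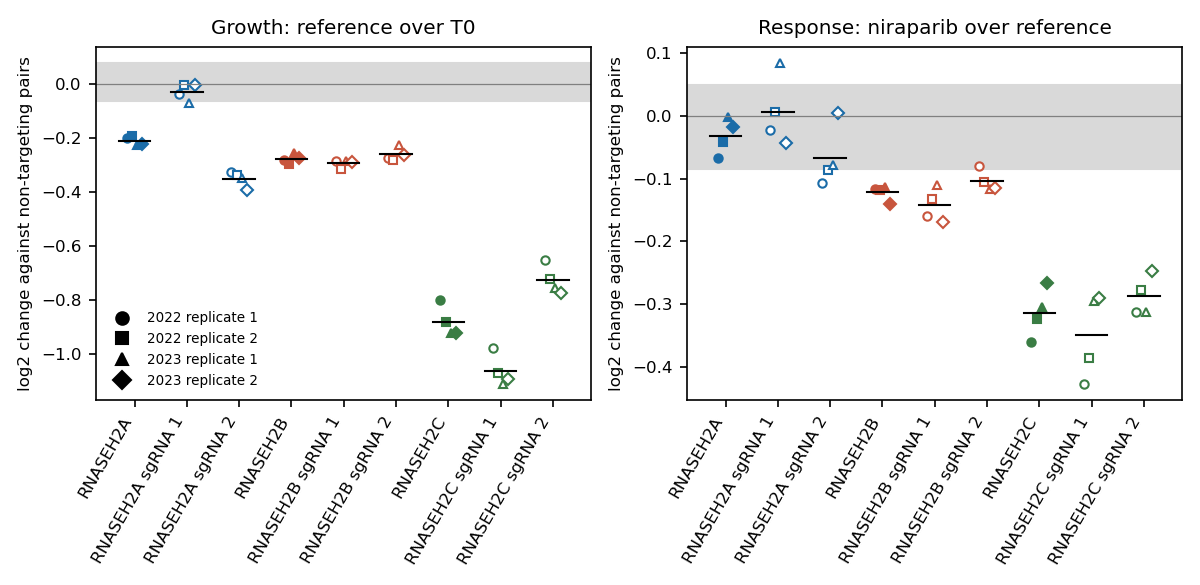
Log2 change of RNase H2 knockdowns with non-targeting partners, in growth (reference over T0, left) and niraparib response (niraparib over reference, right); filled points are genes, open points their 2 sgRNAs, symbols the 4 replicates, black lines means and the grey band the range of 55 non-targeting sgRNAs. RNASEH2C lies lowest in both, and sgRNA 1 of RNASEH2A sits near 0.

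From T0 to the end of the niraparib arm, the total change ordered the genes in the same way. It was -0.24 for RNASEH2A, -0.40 for RNASEH2B and -1.195 for RNASEH2C, against a median of -0.58 over all genes. The replicates spanned -0.268 to -0.230, -0.416 to -0.369 and -1.225 to -1.162, without overlap between the genes. By this measure RNASEH2C ranked 115 of 543, RNASEH2B 319 and RNASEH2A 371. A lower value was called for 82.1% of genes and a higher one for 5.52%. Cells in niraparib went through fewer doublings than reference cells, 4.98 to 5.40 against 7.19 to 8.04 by the constants in the deposited phenotype tables. After each arm was divided by its own doublings and rescaled to equal ones, the response was -0.15 for RNASEH2A, -0.31 for RNASEH2B and -0.88 for RNASEH2C. The median of all genes on that scale was -0.20, so RNASEH2A stood above it and the other 2 below.

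The small RNASEH2A phenotype came from 1 of its sgRNAs. The growth of sgRNA 1 was -0.038, -0.007, -0.072 and -0.007 in the 4 replicates, against -0.328, -0.338, -0.347 and -0.395 for sgRNA 2. sgRNA 1 did not pass the test (mean -0.03 ± 0.03, edgeR adjusted p = 0.245), while sgRNA 2 did (-0.35 ± 0.03, 3.03e-07). The 2 differed by 0.32 (limma adjusted p = 7.43e-05), and 72.0% of all genes had sgRNAs that differed in growth by this test. The RNASEH2C sgRNAs also differed, at -1.06 ± 0.06 for sgRNA 1 and -0.72 ± 0.05 for sgRNA 2 (adjusted p = 1.03e-05), and both passed in growth. The neighbouring sgRNAs of RNASEH2B gave -0.29 ± 0.01 and -0.26 ± 0.02, a difference of -0.03 with an adjusted p of 0.11. In the niraparib response none of the 3 genes had sgRNAs that differed (adjusted p = 0.154 for RNASEH2A, 0.210 for RNASEH2B and 0.128 for RNASEH2C, with 39.8% of genes called). In the total change under niraparib all 3 did, with 74.4% of genes called, by 0.39 for RNASEH2A, -0.07 for RNASEH2B and -0.40 for RNASEH2C. The response of RNASEH2C was -0.35 ± 0.07 by sgRNA 1 and -0.29 ± 0.03 by sgRNA 2, that of RNASEH2B -0.14 and -0.10. That of RNASEH2A was 0.01 ± 0.06 (adjusted p = 0.824) by sgRNA 1 and -0.07 ± 0.05 (0.0046) by sgRNA 2. Each of these means is over 4 replicates.

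Knocking down 2 subunits at once slowed growth far more than either alone. From T0 to the reference arm the RNASEH2A and RNASEH2B pair changed by -0.930, -0.854, -0.823 and -0.972 in the 4 replicates. The RNASEH2A and RNASEH2C pair changed by -1.505, -1.546, -1.656 and -1.632, and the RNASEH2B and RNASEH2C pair by -1.577, -1.635, -1.779 and -1.897. In every replicate the 2 pairs with RNASEH2C lay below the pair without it, while they overlapped each other. The means were -0.89 ± 0.07, -1.58 ± 0.07 and -1.72 ± 0.14 (SD, n = 4), with edgeR adjusted p-values of 8.2e-10, 3.7e-12 and 7.2e-13. Lower growth was called for 93.0% and higher growth for 1.09% of all gene pairs, whose median was -1.06. Scaled on all pairs, the RNASEH2A and RNASEH2B pair stood at 0.22 and the other 2 at -0.47 and -0.61. In niraparib relative to the reference, the same pairs changed by -0.26 ± 0.14 (adjusted p = 9.08e-04), -0.58 ± 0.14 (1.5e-06) and -0.71 ± 0.09 (7.2e-08), against a median of 0.04 over all pairs. A lower response was called for 31.3% of pairs and a higher one for 35.9%. From T0 to the niraparib arm they changed by -1.15, -2.16 and -2.43, against a median of -1.12, with 94.1% of pairs called lower and 1.12% higher. The counts behind the RNASEH2B and RNASEH2C pair fell from 2670, 2604, 1844 and 1859 at T0 to 928, 893, 621 and 504 in niraparib.

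All pairs within the enzyme grew less than their single effects predicted. The prediction comes from a curve fitted, for each sgRNA, through its constructs with every partner against the partner's own phenotype, and the interaction score is the observed minus the predicted log2 change. A score below 0 means that the pair did worse than predicted. Beside scores, the values of a pair or of a gene alone are means of the log2 ratios of single constructs, so they differ from those fitted to summed counts. RNASEH2C alone, for example, is -0.90 in growth here against -0.88 above, and BRCA2 alone is -4.42 under niraparib against -3.54 from summed counts. In growth the predicted changes were -0.47, -1.02 and -1.07 for the RNASEH2A and RNASEH2B, the RNASEH2A and RNASEH2C, and the RNASEH2B and RNASEH2C pair. The scores were -0.43 ± 0.05 (limma adjusted p = 0.0105), -0.55 ± 0.02 (0.0059) and -0.66 ± 0.09 (0.0061), each over 4 replicates. Under niraparib, from T0 to the end of treatment, they were -0.58 ± 0.10 (0.0054), -0.84 ± 0.15 (0.0033) and -1.07 ± 0.04 (0.0005). All 4 sgRNA combinations of each pair were below 0 in both arms. Of the 542 partners of RNASEH2B, RNASEH2C had the lowest score in both arms, and of those of RNASEH2C, RNASEH2B had the lowest under niraparib. Scores this low relative to the noise were uncommon, since 1.32% of all 147044 gene pairs were called lower in growth and 2.65% under niraparib.

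**Figure D2:**
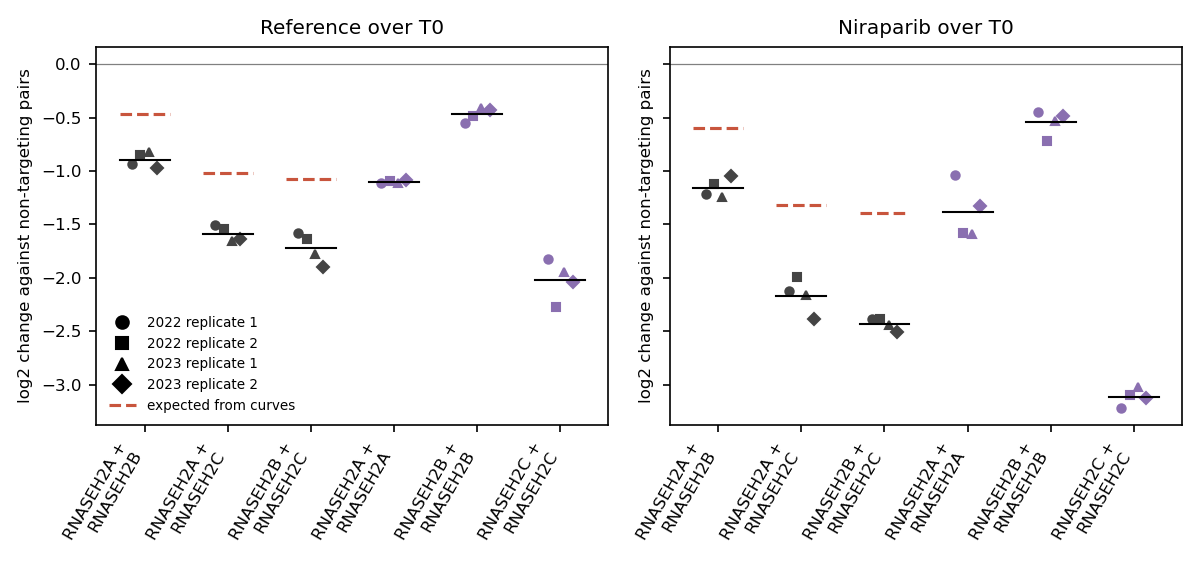
Log2 change of constructs with 2 RNase H2 sgRNAs, from T0 to the reference arm (left) and to the niraparib arm (right), for pairs of different subunits (grey) and for the 2 sgRNAs of the same subunit (purple). Symbols are the 4 replicates and black lines their means, both from summed counts. Dashed lines are the change predicted from the single effects, from means over single constructs. All 4 replicates of each pair of subunits lie below the prediction in both arms.

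The RNASEH2B and RNASEH2C pair was hit harder under niraparib than in DMSO, relative to its prediction in each arm. The difference of its scores, niraparib minus reference, was -0.464, -0.453, -0.355 and -0.357 in the 4 replicates (mean -0.41 ± 0.06, limma adjusted p = 0.042). It was -0.28 for RNASEH2A and RNASEH2C, which did not pass (0.187). Such a difference was called lower in 0.243% of all pairs and higher in 0.208%. With any 1 replicate left out the RNASEH2B and RNASEH2C difference kept its size, at -0.42 to -0.39, and no longer passed. It did not pass with screen as a term either (adjusted p = 0.0757), nor by sgRNA 1 (-0.63, 0.0722) or sgRNA 2 (-0.31, 0.213) of both genes alone.

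Constructs that carried both sgRNAs of the same subunit fell apart by gene. With both RNASEH2C sgRNAs the change to the reference arm was -2.01 ± 0.19, with a mean below that of RNASEH2B with RNASEH2C and replicates that overlapped, and in the niraparib arm it was -3.11. The counts of these constructs went from 708, 691, 475 and 469 at T0 to 494, 320, 195 and 168 in the reference arm and to 138, 144, 107 and 83 in niraparib. With both RNASEH2A sgRNAs growth was -1.10 ± 0.02, against -0.35 for sgRNA 2 with a non-targeting sgRNA. The construct with sgRNA 2 of RNASEH2A in both positions gave -0.76 ± 0.24 and the one with sgRNA 1 in both gave -0.12 ± 0.26, whereas the mixed constructs gave -1.03 ± 0.25 and -1.22 ± 0.34. The means of the mixed constructs lay below the others, with a spread that overlapped that of sgRNA 2 in both positions. With both RNASEH2B sgRNAs growth was -0.47 ± 0.06. These sums over the 2 sgRNAs passed the edgeR test in growth for each gene (adjusted p = 1.19e-07, 5.79e-05 and 1.96e-10 for RNASEH2A, RNASEH2B and RNASEH2C). In the response RNASEH2C changed by -1.10 ± 0.23 (3.4e-06) and RNASEH2A by -0.27 ± 0.27 (0.037), the latter with 1 replicate at 0.083, and RNASEH2B gave -0.08 ± 0.14 (0.416). With 1 replicate left out this RNASEH2A response ranged from -0.42 to -0.14.

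The scores of these same-gene constructs, tested over 520 genes after the values above had been seen, were -0.74 ± 0.06 for RNASEH2A in growth (limma adjusted p = 0.00072), 0.10 ± 0.08 for RNASEH2B (0.377) and -0.62 ± 0.19 for RNASEH2C (0.00406). In growth 28.8% of the 520 genes were called lower and 8.27% higher, with a median of -0.08. Under niraparib the scores were -0.94 ± 0.31 (0.00474), 0.20 ± 0.13 (0.144) and -1.32 ± 0.14 (0.000841). RNASEH2C ranked 28 of 520 there, with 24.8% of genes called lower and 8.46% higher. Its difference between arms was -0.70 ± 0.22 (adjusted p = 0.0495), with 0.962% of genes called lower.

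Outside the enzyme, PARP2 and CHD1L scored lower in growth with every subunit, BRCA2 and LIG1 with RNASEH2B and RNASEH2C, and DCTN5 with RNASEH2A and RNASEH2C, in scores that share the same libraries. Of 542 partners, the other subunits included, 6 scored lower in growth with RNASEH2A, 8 with RNASEH2B and 21 with RNASEH2C. These are 1.11%, 1.48% and 3.87% of the partners, against 1.32% of all pairs. Partners scoring higher were 0, 0 and 3, against 1.11% of all pairs. Under niraparib the lower partners were 9, 13 and 28, or 1.66%, 2.4% and 5.17%, against 2.65% of all pairs. The higher ones were 1, 0 and 15, against 2.52% of all pairs. The shares of lower partners of RNASEH2A and RNASEH2B were thus near or below those of all pairs in both arms. The differences between arms gave 1 lower partner for RNASEH2B and 1 lower and 1 higher for RNASEH2C, and none for RNASEH2A. The counts of called partners fell when any 1 replicate was left out, to 1 to 2, 2 to 4 and 6 to 8 in growth. Why they fell was not tested. Scores of the subunits with the 55 non-targeting sgRNAs ran from -0.17 to 0.16 in growth.

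PARP2 and CHD1L were lower with all 3 subunits in growth. With RNASEH2A these calls were less secure than the scores. Leaving out any 1 replicate kept the scores at -0.36 to -0.32 for PARP2 and -0.37 to -0.30 for CHD1L. Only 1 to 2 partners of RNASEH2A were then still called lower, the other subunits included. By sgRNA 1 of RNASEH2A alone no partner was called in growth. PARP2 adds ADP-ribose to proteins at DNA breaks, as PARP1 does, and CHD1L (ALC1) is a chromatin remodeller switched on by poly(ADP-ribose). Knockdown of PARP2 alone hardly changed growth (-0.03), and with RNASEH2C the pair changed by -1.568, -1.649, -1.834 and -1.676 in the 4 replicates, against a prediction of -0.92. The counts of that pair were 3617, 3498, 2528 and 2396 at T0 and 2976, 2503, 1128 and 1087 in the reference arm. The growth scores of PARP2 were -0.76 ± 0.08 with RNASEH2C (limma adjusted p = 0.0047), -0.54 ± 0.05 with RNASEH2B (0.006) and -0.34 ± 0.06 with RNASEH2A (0.022). Every replicate of each was below 0, and the RNASEH2C replicates lay below those of RNASEH2B, which lay below those of RNASEH2A. The order follows that of the single phenotypes, and a difference between subunits was not tested. Under niraparib the PARP2 scores were -0.74 ± 0.04, -0.56 ± 0.07 and -0.36 ± 0.03 in the same order (adjusted p = 0.0017, 0.004 and 0.011), so PARP2 was the partner outside the enzyme that was lower with all 3 subunits in both arms.

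CHD1L scored -0.67 ± 0.05 in growth with RNASEH2C (adjusted p = 0.0049), -0.48 ± 0.07 with RNASEH2B (0.010) and -0.34 ± 0.09 with RNASEH2A (0.027). The CHD1L and RNASEH2C pair changed by -1.63 ± 0.08 against a prediction of -0.97, with CHD1L alone at -0.17. Under niraparib its scores were nearer to 0, at -0.38 ± 0.09 (0.015), -0.26 ± 0.05 (0.029) and -0.13 ± 0.01 (0.137, not passing). The sgRNA combinations of CHD1L were uneven, from -1.01 to -0.19 in growth with RNASEH2C. C4orf27, the older symbol of HPF1, encodes the factor that directs PARP1 and PARP2 to serine residues. It scored -0.41 ± 0.10 with RNASEH2C in growth (0.020) and -0.70 ± 0.16 under niraparib (0.006), and -0.29 ± 0.07 with RNASEH2B under niraparib (0.026). The other scores of C4orf27 did not pass.

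**Figure D3:**
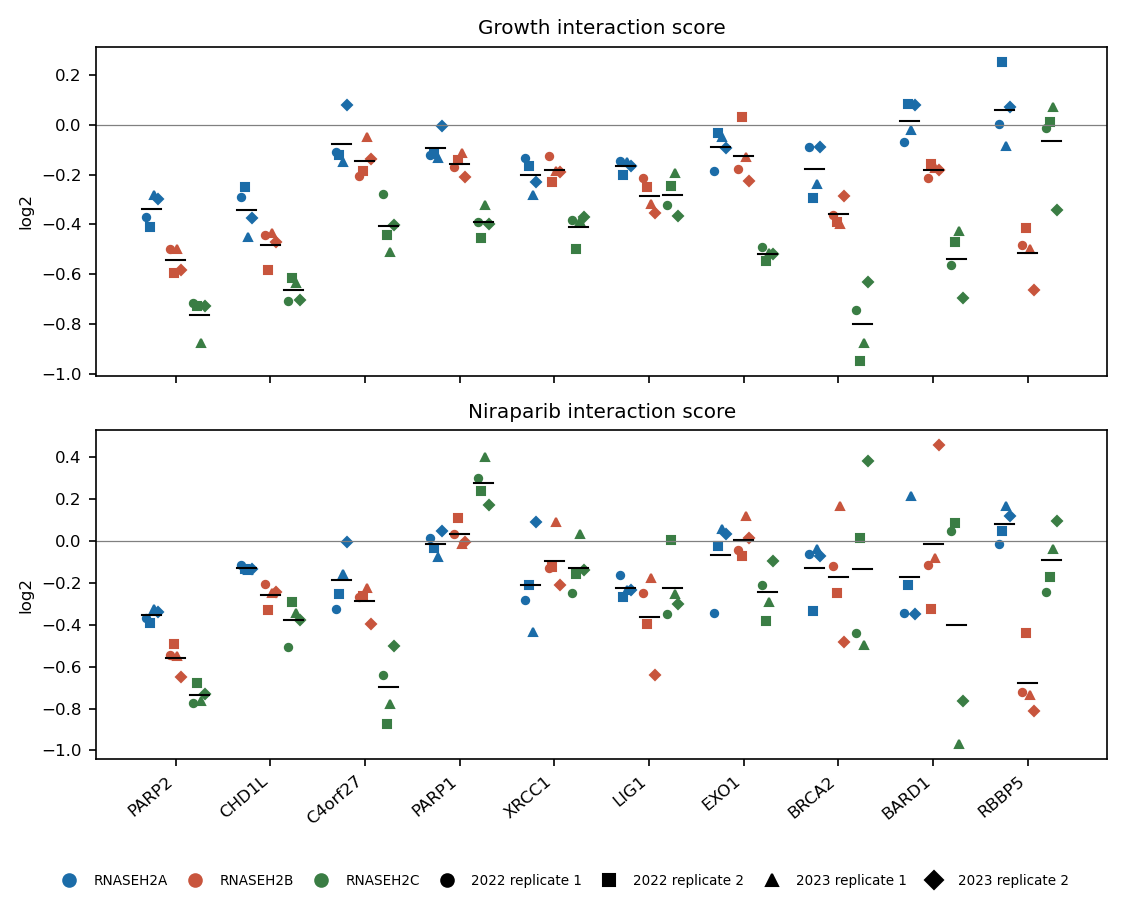
Interaction scores (log2, observed minus predicted) of 10 partners with RNASEH2A (blue), RNASEH2B (red) and RNASEH2C (green) in growth (top) and under niraparib (bottom); symbols are the 4 replicates and black lines their means. PARP2 and CHD1L lie below 0 with all 3 subunits in both panels, PARP1 with RNASEH2C lies on opposite sides of 0 in the 2 arms, and RBBP5 is low with RNASEH2B.

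PARP1 behaved differently with RNASEH2C in the 2 arms. In DMSO the pair changed by -2.073, -1.681, -1.616 and -1.669, against a prediction of -1.37, with PARP1 alone at -0.76 and RNASEH2C alone at -0.90. PARP1 is the enzyme that niraparib traps on DNA, and its knockdown alone raised the abundance of cells under niraparib to 1.38. The pair with RNASEH2C then stood at -0.077, -0.195, 0.013 and -0.086, far below PARP1 alone but above RNASEH2C alone (-1.21) and above the prediction of -0.36. Its counts rose from 1748, 2239, 1025 and 939 in the reference arm to 5065, 4795, 3786 and 3077 in niraparib. The score was -0.39 ± 0.05 in growth (limma adjusted p = 0.015) and 0.28 ± 0.10 under niraparib (0.036). The difference was 0.688, 0.693, 0.725 and 0.571 in the 4 replicates (mean 0.67 ± 0.07, 0.013), and all 4 sgRNA combinations were above 0. This difference depended on the prediction. It was 0.35 (0.0742) with a straight line in place of the curve, and -0.16 (0.174) when the single effects were simply added, and with any 1 replicate left out it did not pass at 0.65 to 0.70. PARP1 scored -0.09 ± 0.06 and -0.16 ± 0.04 in growth with RNASEH2A and RNASEH2B, neither of which passed.

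BRCA2, a central factor of homologous recombination, had the lowest growth score of all partners of RNASEH2C. The scores were -0.745, -0.949, -0.876 and -0.633 in the 4 replicates (mean -0.80 ± 0.14, limma adjusted p = 0.0061). The pair itself changed by -3.297, -2.582, -2.588 and -2.311 against a prediction of -1.89, with BRCA2 alone at -1.41, and the low first value came with a score inside the range of the others. BRCA2 scored -0.36 ± 0.05 with RNASEH2B (0.018) and -0.18 ± 0.11 with RNASEH2A (0.137, not passing). The BRCA1 partner BARD1 scored -0.54 ± 0.12 with RNASEH2C (0.013), BRCA1 itself -0.29 ± 0.10 (0.044), and RBBP8 (CtIP), which starts end resection, -0.39 ± 0.10 (0.022). With the single effects added in place of the curve, BARD1 scored -0.10 and no longer passed (0.255). The BRCA1 and RBBP8 pairs with RNASEH2C changed by -1.43 and -1.87. These lay near the added single effects, which were -0.50 for BRCA1, -0.97 for RBBP8 and -0.90 for RNASEH2C. The BRCA2 score with RNASEH2C ranged from -0.93 to -0.38 over all settings. Under niraparib BRCA2 alone stood at -4.42 and its pair with RNASEH2C at -4.60 ± 0.53, with 189 to 399 counts left per library, and its scores of -0.442, 0.013, -0.495 and 0.380 lay on both sides of 0 (mean -0.14 ± 0.41, 0.669). BARD1 under niraparib was as uneven, at -0.40 ± 0.55. A score of the size found in growth was not resolved in pairs that had fallen this far.

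Over the 25 homologous recombination genes in the library, 5 were lower with RNASEH2C in growth, and none higher, where 3.87% of all partners of RNASEH2C and 1.32% of all pairs were lower. Those 5 were BRCA2, BARD1, BRCA1, RBBP8 and EXO1. The calls depend on the fitted curve: BARD1, BRCA1 and RBBP8 lay near their added single effects, and BRCA2 and EXO1 below theirs. The median score of the 25 was -0.09, against -0.01 over all partners of RNASEH2C. BRCA2 was the only one lower with RNASEH2B (median -0.05 against -0.02), and none passed with RNASEH2A (-0.05 against -0.02). Under niraparib 2 were lower with RNASEH2C, among them AUNIP at -0.52 ± 0.13, with a median of -0.15 against -0.01. Among the Fanconi anaemia genes, which repair crosslinks, 1 of 16 was lower with RNASEH2C in growth (FANCB, -0.26 ± 0.04). Under niraparib 6 of 16 were, with a median of -0.28, namely SLX4, FANCA, UBE2T, FANCF, C19orf40 (FAAP24) and STRA13 (CENPX), at -0.47 to -0.27. Lower there were 5.17% of all partners of RNASEH2C, 2.4% of those of RNASEH2B and 2.65% of all pairs. With RNASEH2B 4 of the 16 were lower under niraparib, which were FANCB, SLX4, FANCF and C19orf40, and the median was -0.17. With RNASEH2A none passed there and the median was -0.09. Under niraparib the 6 RNASEH2C pairs all stood above their added single effects, so their low scores depend on the fitted curve. SLX4 with RNASEH2C, for example, changed by -2.66, with -1.76 for SLX4 and -1.21 for RNASEH2C alone. The 4 RNASEH2B pairs stood at or below their added single effects. The difference between arms, tested directly, passed for none of these 16 genes and none of the 25 with any subunit.

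Of the 5 genes of ADP-ribose turnover (PARP1, PARP2, PARG, C4orf27 and CHD1L), 2, 2 and 4 were lower in growth with RNASEH2A, RNASEH2B and RNASEH2C, and the medians were -0.09, -0.16 and -0.41. Over all partners the medians were -0.02, -0.02 and -0.01, and 1.32% of all pairs were lower. PARG did not pass with any subunit in growth. Of the 6 genes of ribonucleotide removal and flap processing (TOP1, EXO1, LIG1, DNA2, PCNA and POLE3), 0, 1 and 2 were lower in growth with RNASEH2A, RNASEH2B and RNASEH2C. LIG1, the replicative DNA ligase, scored -0.28 ± 0.08 with RNASEH2C (adjusted p = 0.038) and -0.28 ± 0.06 with RNASEH2B (0.034) in growth. The LIG1 and RNASEH2C pair changed by -1.56, near the added single effects of -0.62 and -0.90. The LIG1 and RNASEH2B pair changed by -1.14, below the added -0.62 and -0.29. With RNASEH2A LIG1 passed only under niraparib, at -0.22 ± 0.05 (0.040). EXO1, a nuclease of flaps and resected ends, scored -0.52 ± 0.02 with RNASEH2C (0.006). TOP1, which cuts at ribonucleotides left in DNA, gave growth scores of 0.00 with RNASEH2A, -0.04 with RNASEH2B and -0.03 with RNASEH2C, none of which passed, and none passed under niraparib. XRCC1, the scaffold of single-strand break repair, scored -0.41 ± 0.06 with RNASEH2C in growth (0.014), and -0.20 ± 0.07 and -0.18 ± 0.04 with the other 2, not passing. POLB and LIG3 of that list did not pass with any subunit.

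Of the 15 genes of the ATR checkpoint, ATR itself was lower with RNASEH2C in growth (-0.43 ± 0.20, adjusted p = 0.045). Of all partners of RNASEH2C, 3.87% were lower in growth, and under niraparib 5.17% were lower and 2.77% higher. Lower under niraparib were 1.66% of the partners of RNASEH2A and 2.4% of those of RNASEH2B. A single call in a list this small does not set the list apart from these shares. Under niraparib ATRIP, HUS1 and TOPBP1 were lower with RNASEH2C, at -0.41 ± 0.11, -0.41 ± 0.10 and -0.29 ± 0.13, and TOPBP1 with RNASEH2A at -0.23 ± 0.03 (0.036). These RNASEH2C pairs, and that of ATR in growth, stood above their added single effects, so their low scores depend on the fitted curve. HUS1 with RNASEH2C, for example, changed by -2.52, with -1.56 for HUS1 and -1.21 for RNASEH2C alone. The TOPBP1 and RNASEH2A pair stood below its added single effects. Of the 16 genes of end joining and the 53BP1 axis none passed in growth with any subunit. RIF1, a 53BP1 effector, was the only one called under niraparib, with RNASEH2C at -0.54 ± 0.16 (0.011). No member of the BLM complex (4 genes), of the mismatch repair list (3) or of the topoisomerase list (3) passed in either arm. Of 7 structure-specific nuclease genes SLX4 alone passed, under niraparib, with RNASEH2B (-0.42 ± 0.19) and RNASEH2C (-0.47 ± 0.17). In the nucleotide pool list the pyrimidine enzyme UMPS scored higher with RNASEH2C under niraparib (0.31 ± 0.16), and BRCA1 was the only one of 3 R-loop genes to pass.

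**Figure D4:**
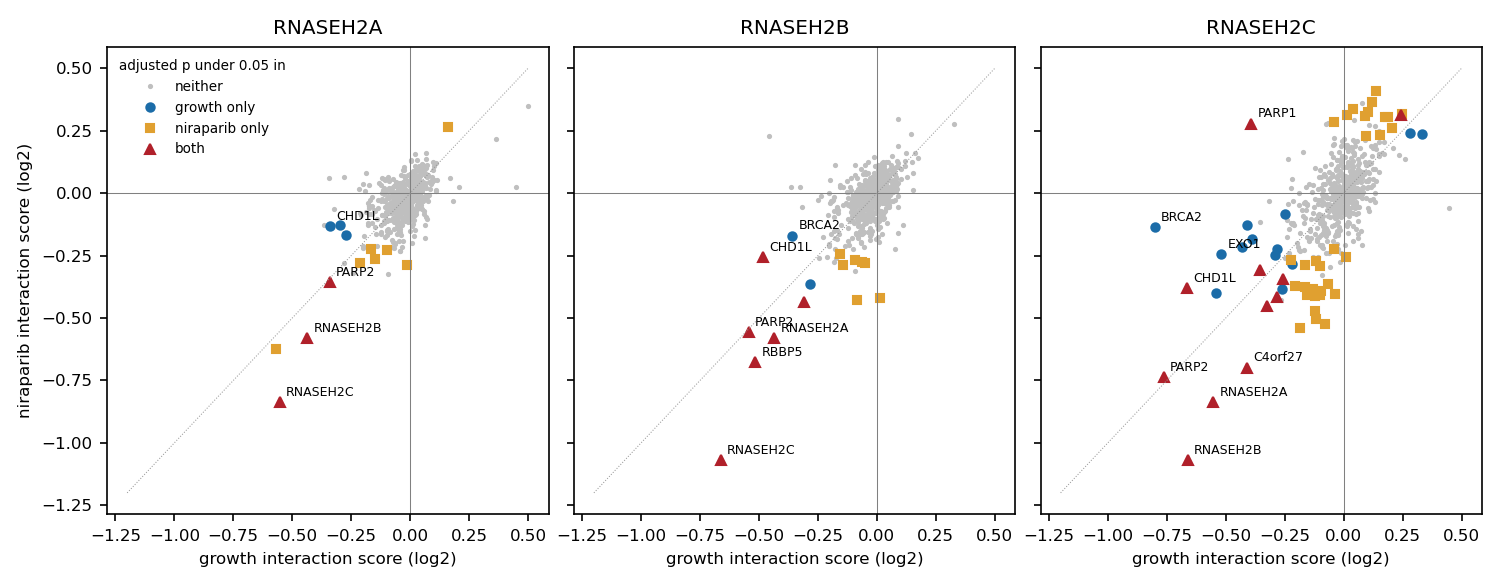
Growth score (x axis, log2) against niraparib score (y axis, log2) of the 542 partners of each RNase H2 gene; coloured symbols are partners with an adjusted p under 0.05 in growth, under niraparib or in both, and the dotted line marks equal scores. The other subunits and PARP2 lie low on both axes, and RNASEH2C has the most called partners (21 lower in growth and 28 lower under niraparib).

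RBBP5, a core subunit of the MLL histone methyltransferases, scored -0.52 ± 0.11 with RNASEH2B in growth (adjusted p = 0.013) and -0.68 ± 0.16 under niraparib (0.007). The pair changed by -1.56 ± 0.19 against a prediction of -1.05, with all 4 sgRNA combinations below 0. With RNASEH2A and RNASEH2C the RBBP5 growth scores were 0.06 ± 0.14 and -0.07 ± 0.19, with replicates on both sides of 0, and the difference between subunits was not tested. With RNASEH2A the remaining growth partners were DCTN5 of dynactin (-0.30 ± 0.10, 0.042) and UROD of haem synthesis (-0.27 ± 0.06, 0.036). DCTN5 was also lower with RNASEH2C (-0.25 ± 0.05, 0.040). The partners that did better than predicted with RNASEH2C in growth were CBLL1 (0.33 ± 0.09, 0.029), WAPAL, the cohesin release factor (0.28 ± 0.08, 0.038), and the phosphatase gene PPP4C (0.24 ± 0.02, 0.036). The deubiquitinase gene BAP1, named after its values were seen, was lower under niraparib with RNASEH2C (-0.50 ± 0.10, 0.007) and RNASEH2A (-0.28 ± 0.07, 0.027).

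RNASEH2A had the fewest partners when its sgRNAs were averaged, and this too was uneven between them. In an analysis added after the values were seen, each member was scored by 1 of its sgRNAs at a time. With sgRNA 2 of RNASEH2A 20 of 542 partners were lower in growth (3.69%) and 29 under niraparib (5.35%). With sgRNA 1 there were 0 in growth and 3 under niraparib. In these fits 1.32% and 1.29% of all pairs were called lower in growth with sgRNA 2 and sgRNA 1, and 2.63% and 2.6% under niraparib. With sgRNA 2 the growth scores were -0.79 for RNASEH2C, -0.72 for RNASEH2B, -0.56 for PARP2 (limma adjusted p = 0.007), -0.52 for CHD1L (0.008) and -0.42 for BRCA2 (0.025). PALB2, which links BRCA1 to BRCA2, scored -0.37, XRCC1 -0.31 and LIG1 -0.27. PARP2 with sgRNA 1 gave -0.10 and -0.15 by its 2 partner sgRNAs, against -0.55 and -0.56 with sgRNA 2. The partner scores of the 2 RNASEH2A sgRNAs correlated with r = -0.01 in growth and 0.03 under niraparib over 1070 partner sgRNAs. For RNASEH2B r was 0.18 and 0.26, and for RNASEH2C 0.47 and 0.55, over constructs that share libraries and depth.

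**Figure D5:**
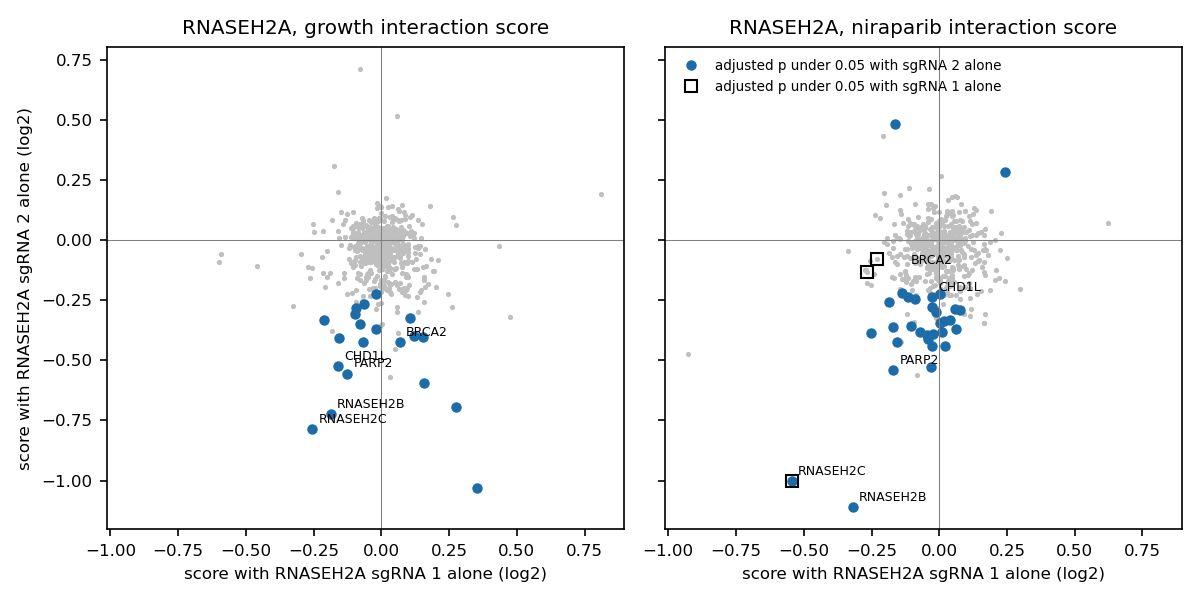
Scores of the 542 partners of RNASEH2A by its sgRNA 1 alone (x axis, log2) and its sgRNA 2 alone (y axis, log2), in growth (left) and under niraparib (right). Blue points passed with sgRNA 2 (20 lower in growth) and open squares with sgRNA 1 (none in growth, 3 under niraparib).

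RNASEH2B and RNASEH2C had similar score profiles over the 541 remaining genes in growth and under niraparib. RNASEH2A, averaged over its uneven sgRNAs, ranked lower among the profiles most like theirs, at 13 for RNASEH2B and 30 for RNASEH2C in growth and at 3 and 69 under niraparib. Under niraparib its sgRNA 1 alone correlated at -0.04 to 0.09 with the sgRNAs of the other subunits, and its sgRNA 2 at 0.17 to 0.415. Between RNASEH2B and RNASEH2C sgRNAs r was 0.29 to 0.36 there. In growth sgRNA 2 gave 0.16 to 0.23, against 0.16 to 0.37 between RNASEH2B and RNASEH2C sgRNAs. In growth the profile closest to RNASEH2B was that of RNASEH2C (r = 0.43), and the closest to RNASEH2C were RNASEH2B (0.43), LIG1 (0.42), XRCC1 (0.40), PARP1 (0.39) and RAD50 (0.39). Those closest to RNASEH2A were PARP1 (0.34), XRCC1 (0.32), PARP2 (0.31), SHMT2 (0.30) and RNASEH2C (0.29). The median r over all genes was 0.08 for RNASEH2C, 0.01 for RNASEH2B and 0.04 for RNASEH2A. Under niraparib RNASEH2A was closest to RNASEH2C (0.44) and RNASEH2B (0.43), and RNASEH2B to RNASEH2C (0.60). Among the profiles closest to RNASEH2C were those of DNPH1 (0.61), which cleans abnormal nucleotides from the pool, RNASEH2B (0.60), DENR (0.59) and LIG3 (0.57). In the profiles of the difference between arms, RNASEH2C ranked 3 for RNASEH2B, but RNASEH2B only 38 for RNASEH2C (r = 0.39). DNPH1 was the closest there to RNASEH2B (0.42) and to RNASEH2C (0.51). These correlations are descriptions, since all profiles come from the same 12 libraries.

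No pair of an RNase H2 gene differed between the 2022 and 2023 screens after adjustment. Of 1623 such pairs 0 passed in each kind of score by limma, and 59, 49 and 55 had an unadjusted p under 0.05 in growth, under niraparib and in the difference between arms. Among all 147044 pairs none passed either.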

How the data were processed

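Counts of sgRNA pairs in genomic DNA were analysed as the authors deposited them, 1 table for each screen. Reads had been aligned with Bowtie2 2.3.4.1, per the submitters' processing notes. Other deposited columns, log2 phenotypes divided by doublings, were used only to read off those doublings. The members and gene lists were chosen with earlier results of these data known.

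Counts summed per gene or gene pair were fitted with edgeR 4.0.16 (R 4.3.3) quasi-likelihood on all 12 libraries, with library sizes from non-targeting pairs and a block for each culture, since the labels' protocols say that 1 culture was divided into the arms. The biological coefficient of variation was 3.06%. Arm effects were fitted within each screen and then averaged. The edgeR p-values thus measure the spread between the 2 replicate cultures of a screen, and not the difference between screens. Those of limma, over 4 replicate values, also hold that difference, except where screen was a term. All cultures were of 1 line. Interaction scores used log2 ratios with a pseudocount of 1, a minimum mean count of 30 at T0 (passed by 13507 of 13656 constructs) and a degree 2 curve, and were tested with limma 3.58.1 (robust eBayes) over 147044 pairs. Benjamini-Hochberg adjustment ran over all rows, with a threshold of 0.05. Partners were named as the lowest and highest 6 in growth among called pairs, up to 4 each way in the difference between arms, the 5 closest profiles and the listed genes, unless stated. Some genes that this rule names are not reported here. On simulated data, edgeR recovered 100% of changes of 0.25 in growth (598 rows), with 5 false calls. There limma recovered 58.2, 96.8 and 98.5% of scores of 0.25, 0.5 and 0.8 in size (147044 pairs), with 197 false calls. These data were drawn from the error models of the tests, without a difference between screens. The recovery therefore does not show how stable calls are in the real libraries. Alternatives covered scaling (TMM, DESeq2 1.42.0), position, sgRNA, pseudocount, count minimum, curve, screen, block and leaving out each replicate.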

Additional observations from a re-analysis of the deposited data

Results flagged for a closer look

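The difference between the niraparib and the reference score was itself tested, and 3 results of RNase H2 genes passed by limma. The RNASEH2B and RNASEH2C pair differed by -0.41 between the arms, lower under niraparib in 4 of 4 replicates, and did not pass with screen as a term or with any 1 replicate left out. The RNASEH2C and PARP1 pair differed by 0.67, higher under niraparib in 4 of 4 replicates. That difference was 0.35 with a line and -0.16 with added effects, neither of which passed, and it did not pass with any 1 replicate left out. The 2 sgRNAs of RNASEH2C together differed by -0.70, lower under niraparib in 4 of 4 replicates, in a test chosen after the data were seen. The constructs with both RNASEH2C sgRNAs held 83 to 144 counts per niraparib library.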

How the results depend on the processing

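Scaling mattered for the smaller phenotypes. With TMM and DESeq2 factors, RNASEH2A stood at 0.24 and 0.18 in growth and at 0.20 and 0.19 under niraparib, RNASEH2B at 0.18 and 0.11 and at 0.041 and 0.035, and the RNASEH2A response at 0.011 with DESeq2. With TMM the growth of RNASEH2A with itself was 0.0097, of RNASEH2A with RNASEH2B 0.22 and of RNASEH2B with itself 0.65. These scalings move the median gene towards 0. By its sgRNA 1 alone RNASEH2A gave -0.031 in growth, 0.0060 in response and -0.025 under niraparib, and from the first position alone a response of -0.030 that did not pass.

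The PARP1 and RNASEH2C difference between arms was 0.35 with a line, -0.16 with added effects and 0.53 by sgRNA 2 of the members. That of RNASEH2B and RNASEH2C did not pass with screen as a term (-0.41), nor by sgRNA 1 (-0.63) or sgRNA 2 (-0.31). By sgRNA 1 the growth scores of RNASEH2A were -0.19 with RNASEH2B and -0.26 with RNASEH2C, and -0.32 with RNASEH2B under niraparib, and did not pass. The cause was not tested.

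Lower growth partners of RNASEH2A, RNASEH2B and RNASEH2C numbered 13, 14 and 39 with a pseudocount of 10, those of RNASEH2A 10 with a line, 0 by sgRNA 1 and 20 by sgRNA 2, and those of RNASEH2C 11 with added effects and 13 by sgRNA 2. Under niraparib they numbered 17, 24 and 56 with a pseudocount of 10 and 5, 7 and 10 with added effects. Those of RNASEH2A were 4 with screen as a term, 3 by sgRNA 1 and 29 by sgRNA 2, those of RNASEH2B 7 by sgRNA 1 and those of RNASEH2C 13 by sgRNA 2. With added effects 308 partners scored higher with RNASEH2C in growth, so that setting moves the whole scale. The single-sgRNA settings were chosen after seeing the data.

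Leaving out 1 replicate gave 1 to 2, 2 to 4 and 6 to 8 lower growth partners for RNASEH2A, RNASEH2B and RNASEH2C, and 2 to 3, 4 to 5 and 9 to 15 under niraparib. The RNASEH2A response ranged from -0.039 to -0.026, the RNASEH2A and RNASEH2B growth score from -0.45 to -0.42, the PARP1 difference from 0.65 to 0.70 and that of RNASEH2B and RNASEH2C from -0.42 to -0.39. The response of RNASEH2B with itself, which passed in no setting, ranged from -0.16 to 0.0049, and that of RNASEH2A with itself from -0.42 to -0.14. Over all settings, 3 calls among the same-gene responses were lost.

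Without the replicate block the RNASEH2C response was -0.31 and every single and pair call named in the text kept its side of the threshold, while the lower partners of RNASEH2C in the difference between arms numbered 3 in place of 1. The other 240 settings of the main results kept direction and call or, for numbers of partners, stayed within 1.5-fold of the main number. The growth scores of the partners outside the enzyme that were lowest or highest among called pairs are not among these. They kept direction in all settings, but the call was kept in 128 settings and lost in 52. Other growth partners named in the text were not counted here, and not all kept direction with added effects. ATR with RNASEH2C changed by -2.49, above the added -1.93 and -0.90. DCTN5 with RNASEH2C changed by -1.45, above the added -0.63 and -0.90.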
